A study of Mus musculus with 4 samples.

Results

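The genes described here encode subunits of the NuRD complex and class I histone deacetylases. The 10 members, among the 21938 protein-coding genes of the mouse annotation, are Chd4, Chd3, Hdac1, Hdac2, Hdac3, Mta1, Mta2, Mbd3, Gatad2a and Rbbp4. Further NuRD subunits and the last class I deacetylase are no members and are described below. The 10 genes were chosen by function. For each gene the differential ATAC-seq peaks were collected that lay in the gene body or within 10 kb of one of its transcription start sites (TSSs). ATAC-seq cuts open chromatin with the Tn5 transposase, so the number of tags at a site is a measure of its accessibility. The libraries came from whole hearts of mouse embryos at embryonic day 9.5, either wild type (WT) or homozygous for a conventional, whole-body null allele of Smyd1 (Smyd1-KO), a lysine methyltransferase of striated muscle. Each genotype had 2 libraries, each made from 40000 viable cells of a pool of 4 hearts, with embryos of both sexes and all cell types of the heart together. For each genotype the authors merged its libraries before peaks were called, and deposited 1 list of the 149-bp peaks that had at least 2-fold more tags in that genotype than in the other. The lists therefore carry no replicate error and allow no test between genotypes. They hold no RNA, so neither the loss of Smyd1 nor the cell types of the hearts could be checked from them, and a change in the proportions of cell types cannot be told apart from a change within a cell type.

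NuRD joins an ATP-dependent nucleosome remodeller to a histone deacetylase. CHD4 or its paralogue CHD3 supplies the ATPase, HDAC1 and HDAC2 remove acetyl groups from histones, MTA1 and MTA2 are the scaffold that holds the deacetylases, RBBP4 is a WD40 protein that binds histones, MBD3 is a methyl-CpG-binding-domain subunit, and GATAD2A bridges MBD3 to CHD4. HDAC1 and HDAC2 also work in the SIN3, CoREST and MiDAC complexes, whereas HDAC3 belongs to the NCoR corepressor complex. In the embryonic heart, NuRD is known for keeping genes of other lineages silent in cardiomyocytes, and SMYD1 itself was first described as a repressor that acts through histone deacetylases.

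Every one of the 10 genes had a peak that was more accessible in the Smyd1-KO hearts, and none had a peak that was more accessible in WT hearts. There were 21 such Smyd1-KO-enriched peaks, and 9 of them lay within 100 bp of a TSS of the gene, at 8 of the 10 genes. Such peaks were also common elsewhere: 62.6% of all protein-coding genes met the same rule, as did 86.5% of the genes whose promoter was rich in CpG, a class that held 9 of the 10. The absence of WT-enriched peaks was also the usual case, since only 0.155% of protein-coding genes had one.

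The sequences of 8 peaks at 7 of the genes are printed here, chosen for their high or low scores or their position, and none is printed for Hdac2, Hdac3 or Mta2. They are given 5′ to 3′ on the strand of the gene, in mm10 (GRCm38) coordinates, from the RefSeq copy of that assembly. Annotated exons are left out, so some are shorter than the peak. Capitals mark the GC box (GGGCGG, the element read by SP and KLF factors), the CCAAT box (CCAAT, read by NF-Y), the CTCF core (AGGGGGC) and a TEAD string (GGAATG), in either orientation. The promoter peaks with the 4 highest scores, the score being the pooled tag signal of the peak, are shown first, in falling order.
Mbd3 promoter, chr10:80399582-80399730, minus strand: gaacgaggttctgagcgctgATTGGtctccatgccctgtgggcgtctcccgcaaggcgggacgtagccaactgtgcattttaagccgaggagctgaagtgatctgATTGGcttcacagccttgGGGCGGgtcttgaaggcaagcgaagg
Gatad2a promoter, chr8:69996385-69996480, minus strand: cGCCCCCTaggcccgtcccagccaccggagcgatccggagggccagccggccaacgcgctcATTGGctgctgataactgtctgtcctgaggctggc
Rbbp4 promoter, chr4:129335380-129335528, minus strand: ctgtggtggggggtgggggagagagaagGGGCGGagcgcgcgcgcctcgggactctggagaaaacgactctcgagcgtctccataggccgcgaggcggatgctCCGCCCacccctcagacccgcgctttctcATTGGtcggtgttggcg
Hdac1 promoter, chr4:129542714-129542833, minus strand: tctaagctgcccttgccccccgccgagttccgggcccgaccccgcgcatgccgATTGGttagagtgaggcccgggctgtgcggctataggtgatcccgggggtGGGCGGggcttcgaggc

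The promoter peaks with the lowest scores follow, for contrast with the first set.
Chd4 promoter, chr6:125095931-125095980, plus strand: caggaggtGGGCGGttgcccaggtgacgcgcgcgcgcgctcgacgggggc
Mta1 promoter, chr12:113098093-113098241, plus strand: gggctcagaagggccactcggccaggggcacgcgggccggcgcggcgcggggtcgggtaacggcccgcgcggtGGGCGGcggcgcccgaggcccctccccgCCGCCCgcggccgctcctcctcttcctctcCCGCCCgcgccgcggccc

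Peaks away from the main promoter are represented by the only peak of Chd3 and by a CpG-poor peak beside an internal start of Gatad2a.
Chd3 first part of the gene, intron, chr11:69366498-69366646, minus strand: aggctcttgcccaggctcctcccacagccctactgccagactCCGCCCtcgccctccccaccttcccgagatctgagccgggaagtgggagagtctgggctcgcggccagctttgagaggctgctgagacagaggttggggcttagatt
Gatad2a internal start, intron, chr8:69936601-69936749, minus strand: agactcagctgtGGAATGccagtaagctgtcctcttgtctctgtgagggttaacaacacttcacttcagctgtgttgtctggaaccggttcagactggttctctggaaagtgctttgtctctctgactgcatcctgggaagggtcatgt

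**Figure D1:**
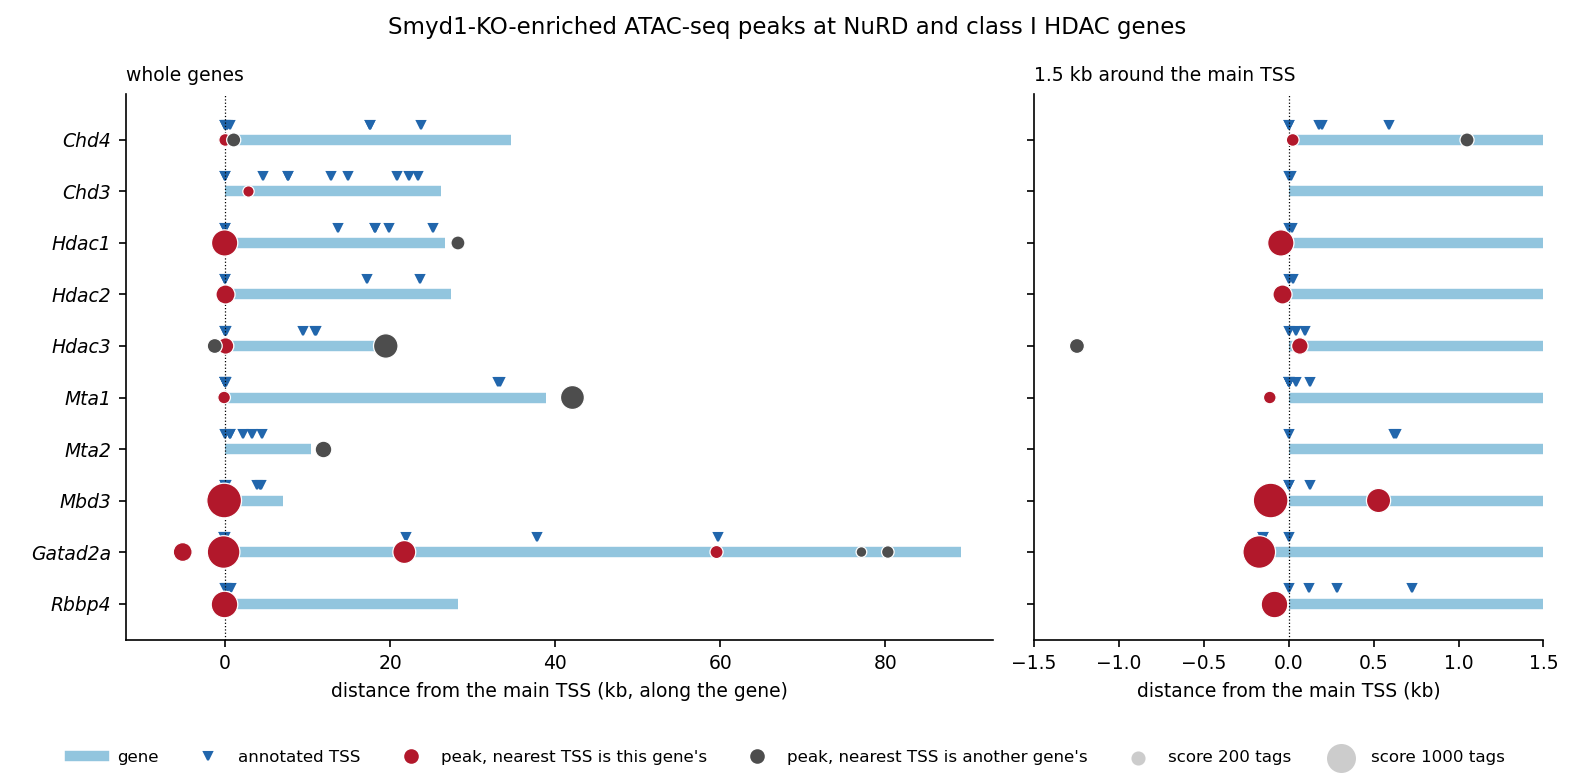
Position of the 21 Smyd1-KO-enriched peaks at the 10 genes, in kb from the main TSS along each gene (left, whole genes; right, 1.5 kb on either side of the main TSS). Bars are genes, triangles annotated TSSs, and circles peaks with an area proportional to the score; red circles have their nearest TSS in the gene itself (13 peaks) and grey ones in another gene (8 peaks). At 8 genes a red circle sits at the main TSS.

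The ATPase genes Chd4 and Chd3 had peaks with scores that were low beside those of promoter peaks, although not for the list as a whole. Chd4 (chr6:125095981-125130591, plus strand) had a peak of 225.5 tags that covered its main TSS and a second peak of 274 tags 976 bp downstream of it, in a 5′ UTR. That second peak also covered the start of the microRNA gene Mir7045, and its nearest TSS was that of Mir7045. Chd3 (chr11:69343273-69369406, minus strand) had a single peak of 179.5 tags in an intron, 2760 bp downstream of the main TSS and 1719 bp from the nearest annotated one. Chd3 was the only one of the 10 genes whose promoter missed the CpG-rich class, with 69.7% GC but an observed to expected CpG ratio of 0.558 against a minimum of 0.6. The score of the Chd3 peak was at percentile 49.8 of the list, and those of the Chd4 peaks were at percentiles 56.2 and 62.0. Set among the promoter peaks of the list, the same scores were at percentiles 7.62, 12.6 and 19.3. Only the Chd4 peak of 225.5 tags was itself within 100 bp of a TSS of its gene, and Chd3 had no such peak.

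The deacetylase genes each had a peak over the TSS, and these differed in score. At Hdac1 (chr4:129516104-129542713, minus strand) the promoter peak had 955 tags, with an approximate 95% Poisson interval of 895.4 to 1018. At Hdac2 (chr10:36974544-37001889, plus strand) it had 503.5 tags (460.5 to 549.5). At Hdac3 (chr18:37935844-37955016, minus strand) it had 375.5 tags (338.5 to 415.5). The 3 intervals did not overlap, but they cover counting error alone and say nothing of the spread between hearts. They are approximate, because the scores step in fractions of a tag and were read as if they were counts. All the peaks were 149 bp wide, so that scores can be compared between genes without a length correction.

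The promoter peak of Hdac2 was the only peak of that gene, while Hdac1 and Hdac3 had further peaks that lay closer to their neighbours. A peak of 272 tags was 1541 bp past the end of Hdac1, in an intron of Marcksl1, which encodes an actin- and calmodulin-binding MARCKS-like protein. A peak of 309.5 tags lay 1172 bp upstream of Hdac3, in the 5′ UTR of Rell2, which is transcribed in the opposite direction. The Hdac3 promoter peak itself was 55 bp from the nearest Rell2 start, so that it belongs to both genes by position. The third peak of Hdac3, with 831.5 tags, was 233 bp past the gene end and covered a start of Diaph1, a formin that builds actin filaments.

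Of the MTA scaffold genes, Mta1 had a Smyd1-KO-enriched peak with a low score for a promoter peak, and Mta2 had none at its promoter. The lists hold only peaks that differed between genotypes, so they do not show how open either promoter was. The Mta1 promoter peak (gene at chr12:113098278-113137206, plus strand) was 37 bp upstream of the TSS and had 220 tags (191.9 to 251.1), the lowest score of any member peak within 100 bp of a TSS. The other peak counted for Mta1, with 791 tags, lay 3096 bp past the gene end and 66 bp from a start of Crip2, which encodes a LIM-domain protein found in the heart and vessels. Mta2 (chr19:8941875-8952303, plus strand) had no peak within 3 kb of a TSS. Its single peak, with 385 tags, was 1325 bp past the gene end and 71 bp from a start of Tut1, a terminal uridylyltransferase gene. The 3 genes Mta1, Mta2 and Hdac3 thus each had a peak counted that lay at the promoter of the next gene.

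The strongest peaks were at the genes for the MBD subunit and its bridge to CHD4. At Mbd3 (chr10:80392539-80399550, minus strand) the promoter peak had 1663.5 tags (1585 to 1745) and ended 32 bp upstream of the TSS. A second Mbd3 peak, with 808.5 tags, was in an intron 455 bp downstream of the main TSS. Mbd3 is the shortest of the 10 genes (7012 bp), and both of its peaks scored above the upper quartile of promoter peaks in the list (677 tags). Gatad2a (chr8:69907076-69996384, minus strand) is the longest (89309 bp) and had 6 peaks, a number reached by 1.36% of protein-coding genes.

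Of the 6 Gatad2a peaks, 3 lay beside annotated starts of the gene. The one at the promoter covered the most upstream start, 99 bp from the main TSS, and had 1472.5 tags (1398 to 1550). A peak of 726 tags lay 165 bp upstream of a start inside the gene and a peak of 237.5 tags 75 bp upstream of the most downstream start, both in introns of the longer transcripts. A further peak of 490.5 tags was 4904 bp upstream of the gene. The remaining pair, with 219.5 and 158 tags, lay in introns near the 3′ end, more than 10 kb from any Gatad2a start, and contained no CpG at all. Yjefn3 held the nearest TSS to both, at 13130 and 16328 bp. Scores within this gene thus ran from the lowest member peak to the second highest.

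Rbbp4 (chr4:129307100-129335370, minus strand) had 1 peak, with 977.5 tags (917.2 to 1041), that ended 10 bp upstream of its TSS. A start of Zbtb8os, which encodes the RNA ligase accessory protein archease, was 167 bp away on the other side of it. The interval of the Rbbp4 score overlapped that of the Hdac1 promoter peak, so their order was not resolved even by counting error. Rbbp4 and Hdac1 lie on the same chromosome with 180733 bp between them.

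**Figure D2:**
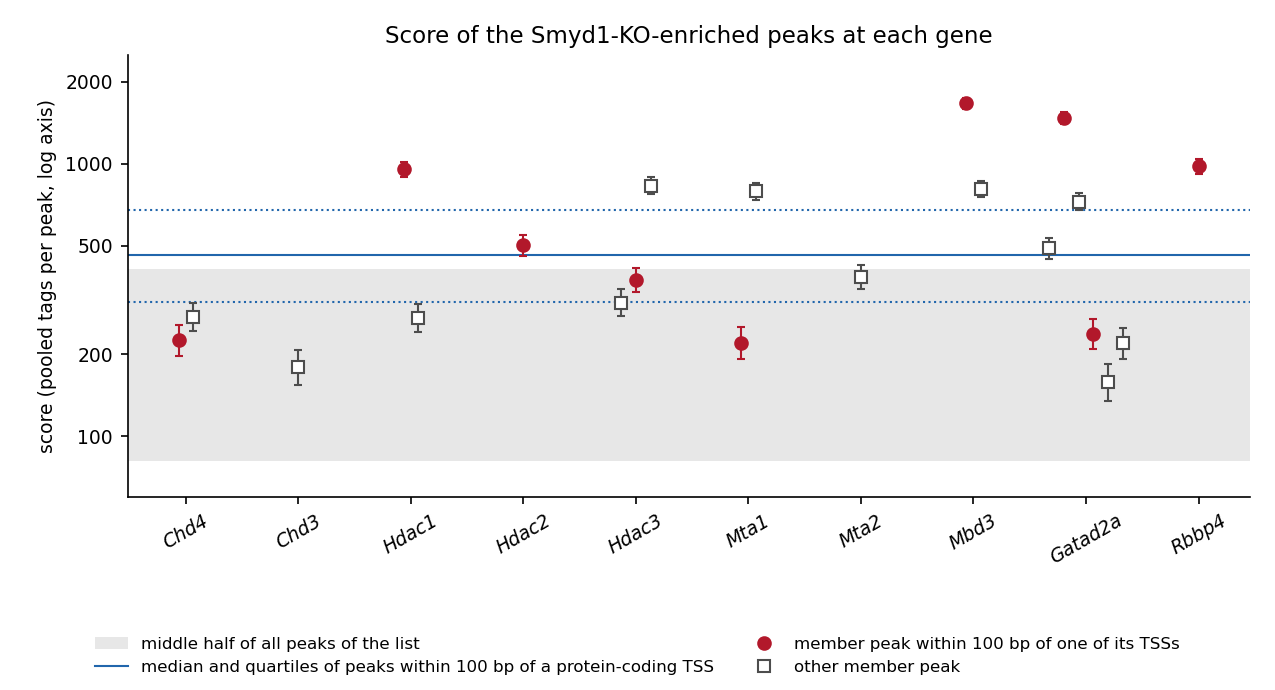
Score of each Smyd1-KO-enriched peak (pooled tags in 149 bp, log axis) at the 10 genes, in order along each gene. Red circles are member peaks within 100 bp of a TSS of the gene and open squares the other member peaks, with approximate 95% Poisson intervals; the grey band spans the quartiles of all 25745 peaks (81.0 to 410 tags) and blue lines give the median (462.5) and quartiles (310 and 677) of the 8219 peaks within 100 bp of a protein-coding TSS. Hdac1, Mbd3, Gatad2a and Rbbp4 have a promoter peak above the upper quartile of promoter peaks, and the circles of Chd4, Mta1 and an internal start of Gatad2a lie below the lower one.

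A peak lay within 100 bp of the main TSS at 8 genes, and not at Chd3 or Mta2. Ranked by the score of that peak, the order was Mbd3, Gatad2a, Rbbp4, Hdac1, Hdac2, Hdac3, Chd4 and Mta1. The intervals of neighbours overlapped for Rbbp4 and Hdac1 and for Chd4 and Mta1, and not for the other neighbours. Among all promoter peaks of the Smyd1-KO list the first 4 of these scores stood at percentiles 99.9, 99.5, 92.3 and 91.6. Hdac2 and Hdac3 followed at percentiles 56.0 and 35.7, and Chd4 and Mta1 at 12.6 and 11.8. The member promoter peaks were therefore spread from percentile 11.8 to 99.9, with a median of 503.5 tags (n = 9) against 462.5 for all promoter peaks (n = 8219). For the strongest peak within 3 kb of a TSS, the median was 503.5 tags over the 9 genes that had one and 460.5 tags over 11236 protein-coding genes, and 5 of the 9 were above the latter value.

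The member peaks farther than 100 bp from a TSS of their own gene had a median of 347.2 tags (n = 12), and these include the peaks at the starts of Mir7045, Diaph1, Crip2 and Tut1. The whole Smyd1-KO list of 25745 peaks had a median of 180.5 tags, and 19 of the 21 member peaks were above it. The WT list held 106 peaks and none of them fell at these genes. Its scores appeared to be on another scale and were not set against those of the Smyd1-KO list.

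The question of whether these genes differ from others was approached with the share of genes that had a peak under 4 distances. A Smyd1-KO-enriched peak was within 3 kb of a TSS at 9 of the 10 genes (all but Mta2), where the share was 51.2% for all protein-coding genes and 78.0% for those with a CpG-rich promoter. Within 100 bp it was 8 of 10, against 40.1% and 65.7%. A peak covered a TSS at 5 of 10 (Chd4, Hdac1, Hdac2, Hdac3 and Gatad2a), against 27.8% and 44.6%. More than 1 peak was found at 6 of the 10 genes and at 29.4% of protein-coding genes, but the members were also longer, with a median of 26978 bp against 17425 bp. Among the 9 members with a CpG-rich promoter, the counts were 9 in all, 8 within 3 kb, 8 within 100 bp and 5 covering a TSS (55.6%). The shares at these genes were thus nearer to those of CpG-rich promoters than to those of all genes, and each share rests on 10 genes.

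**Figure D3:**
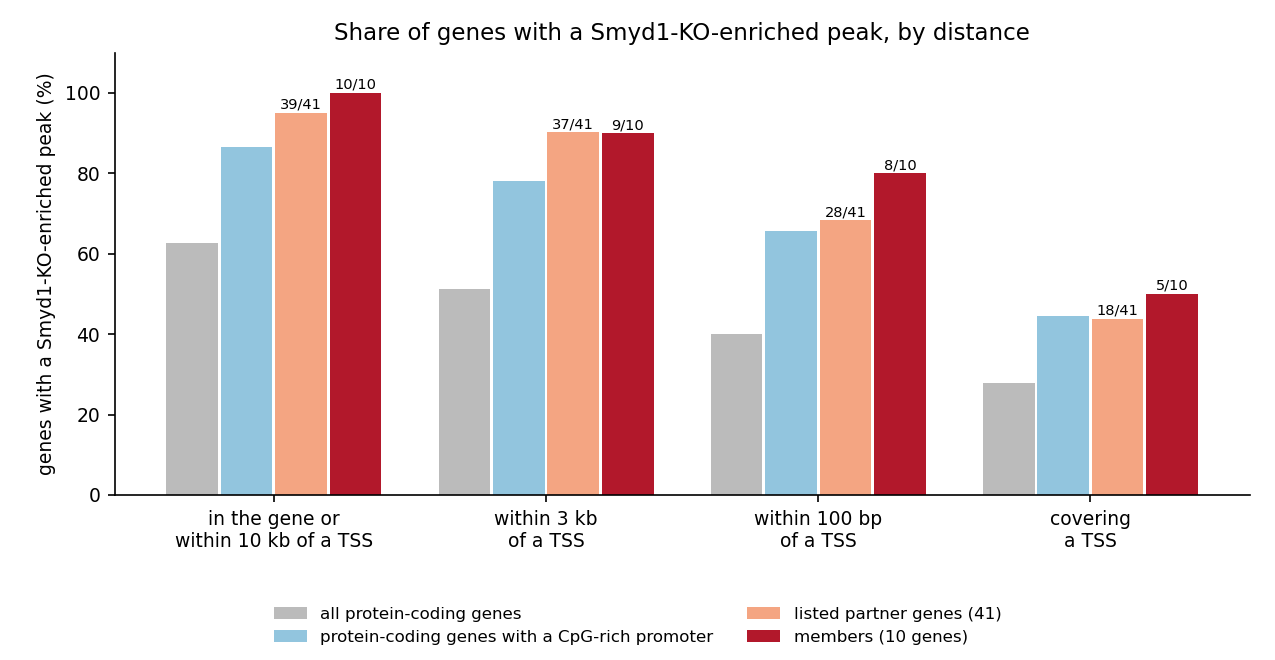
Percentage of genes with a Smyd1-KO-enriched peak under 4 distances from the TSS, for all protein-coding genes, protein-coding genes with a CpG-rich promoter, 41 listed partner genes and the 10 members; counts of genes stand above the bars of the small groups. The members' bars lie closer to those of the CpG-rich genes and of the partner genes than to those of all genes at each distance.

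Among the remaining subunits of NuRD and the last class I deacetylase, each of the 7 genes had a Smyd1-KO-enriched peak and none a WT-enriched one. The shares for that rule were 62.6% of all genes and 86.5% of those with a CpG-rich promoter. A peak was within 3 kb of a TSS at 5 of the 7 (71.4%), against 51.2% and 78.0%, and the same 5 of 7 held within 100 bp, against 40.1% and 65.7%. It covered a TSS at 2 (28.6%), against 27.8% and 44.6%. Gatad2b, the paralogue of Gatad2a, had a promoter peak of 1134.5 tags, Mbd2, which replaces MBD3 in an alternative NuRD, one of 745.5, and Rbbp7, the paralogue of Rbbp4, one of 591.5. Cdk2ap1, a small NuRD subunit, had 583.5 tags 40 bp from a start and 2250 bp from its main TSS. Hdac8, which works outside these complexes and deacetylates cohesin, had 72.5 tags. Chd5, the neuronal paralogue of Chd4, and Mta3 each had 1 peak, of 117.5 and 60.5 tags, and neither was within 3 kb of a TSS.

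In the other complexes that contain HDAC1, HDAC2 or HDAC3, peaks within 3 kb of a TSS are read against the 51.2% of all genes and the 78.0% of CpG-rich ones. They were found at 9 of 10 SIN3 genes, all but Sap18, with 1361.5 tags at Ing1, a reader of methylated histone H3. The strongest peak counted for the scaffold gene Sin3a, with 1258.5 tags, was 193 bp from a Sin3a start, 3995 bp from the main one, and 22 bp from a start of 2700012I20Rik. The CoREST list had 9 of 9, and the strongest such peak of a gene ran from 336.5 tags at the demethylase gene Kdm1a to 1182.5 at the corepressor gene Rcor1. Ncor1, whose protein is a corepressor that activates HDAC3, had 550 tags at a start 18705 bp from its main TSS. The 3 MiDAC genes all had one. Of all 41 partner genes, which also include the 7 of the preceding paragraph and 7 deacetylases outside class I, 39 had a peak under the full rule (95.1%, against 62.6% of all genes and 86.5% of CpG-rich ones), 37 within 3 kb (90.2%), 28 within 100 bp (68.3%) and 18 over a TSS (43.9%), and none had a WT-enriched peak. The last pair of shares was close to the 65.7% and 44.6% of genes with a CpG-rich promoter. Trerf1, of the MiDAC list, is not annotated as protein-coding, so it is among the 41 but not among the genes these shares were taken from.

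The member peaks ranged from CpG-rich to CpG-free sequence. Their median GC content was 68.5% (range 47.0% to 85.2%) and their median observed to expected CpG ratio 0.737, whereas the whole list had 57.7% and 0.416 and its promoter peaks 67.1% and 0.834. The 300-bp promoters of the members, from 250 bases before to 50 after the main TSS, had 57.0% to 81.0% GC, with a median of 55.7% over all protein-coding genes. The centre of the peak lay upstream of the TSS in 7 of the 9 member promoter peaks and in 63.3% of promoter peaks of the list. No 36-base word of any member peak occurred a second time in the genome, so that short reads there could be placed uniquely.

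Of 12 transcription factor strings searched on both strands, the GC box and the CCAAT box were the most frequent. GGGCGG was in all 10 member promoters, compared with 45.0% of all promoters and 76.8% of CpG-rich ones, and in 14 of the 21 member peaks, compared with 29.1% of the list and 58.4% of its promoter peaks. CCAAT was in 5 member promoters (Chd4, Hdac1, Mbd3, Gatad2a and Rbbp4), compared with 38.5% of all promoters and 36.7% of CpG-rich ones, and in 7 of the 21 member peaks, compared with 19.6% of the list and 27.7% of its promoter peaks. The CTCF core AGGGGGC, which can share bases with a GC box, was in 4 member promoters (12.1% of all and 18.9% of CpG-rich ones) and 3 member peaks (9.09% of the list and 11.5% of its promoter peaks). The ETS string CCGGAAGT was in the promoters of Mta2 and Gatad2a (4.98% of all and 8.89% of CpG-rich ones) and in no member peak (1.94% of the list and 5.07% of its promoter peaks).

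Strings of factors with roles in the heart were searched in the same way. The GATA string AGATAA was in the Chd4 promoter (9.82% of all promoters and 3.73% of CpG-rich ones) and in no member peak (8.87% of the list and 1.46% of its promoter peaks). The TEAD string GGAATG was in the Hdac3 promoter (12.9% and 9.42%) and in 2 of 21 member peaks (10.6% and 4.66%), of which the one in Gatad2a is printed above. The MEF2 string TAAAAATA was in no member promoter (2.02% and 0.704%) and no member peak (1.24% and 0.195%). With the shares of all and of CpG-rich promoters in parentheses, the E-box CACGTG was in the Rbbp4 promoter (7.74% and 11.7%), the TATA box TATAAA in that of Mbd3 (12.6% and 4.67%), and NRF1 (CGCATGCG, 2.66% and 4.62%), YY1 (AAGATGGC, 2.98% and 4.94%) and CRE (TGACGTCA, 2.46% and 4.02%) strings in none. None of these last 5 strings was in a member peak (at most 3.24% of the list and 4.92% of its promoter peaks). A match is a run of letters and not a measured binding site.

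The 4 promoter peaks with the highest scores, those of Mbd3, Gatad2a, Rbbp4 and Hdac1, all contained CCAAT, which is in capitals in the sequences printed above as ATTGG, its reverse complement. The peaks of Hdac2, Hdac3 and Mta1 did not, and that of Chd4 did, outside the stretch printed. Because this was seen in the members, the promoter peaks of the whole list were then split by the same string, as a description without a test. The 2274 with CCAAT had a median of 614.8 tags (quartiles 403 and 834) and the 5945 without it 423.5 tags (289 and 602). The order was the same within each quartile of GC content, from 535.0 against 299.2 tags in the lowest to 645.5 against 458.0 in the highest. For the GC box the medians were 504.5 tags in the 4800 peaks with it and 401.0 in the 3419 without.

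Among the 8 peaks at a main TSS, the score tended to be lower where GC content was higher. They ran from Mbd3 (58.4% GC, 1663.5 tags) to Mta1 (85.2% GC, 220 tags), with a Spearman rho of -0.802 across genes. This set leaves out the Gatad2a peak beside an internal start, which had 49.7% GC and 237.5 tags and goes against the trend. The order had exceptions, as Hdac1 (71.8% GC) and Hdac2 (76.5% GC) had both higher GC content and higher scores than Hdac3 (69.8% GC) and Chd4 (71.1% GC). Over all promoter peaks of the list the same coefficient was 0.132. All of these points come from 1 pooled list and share its depth, and 8 genes describe only themselves.

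**Figure D4:**
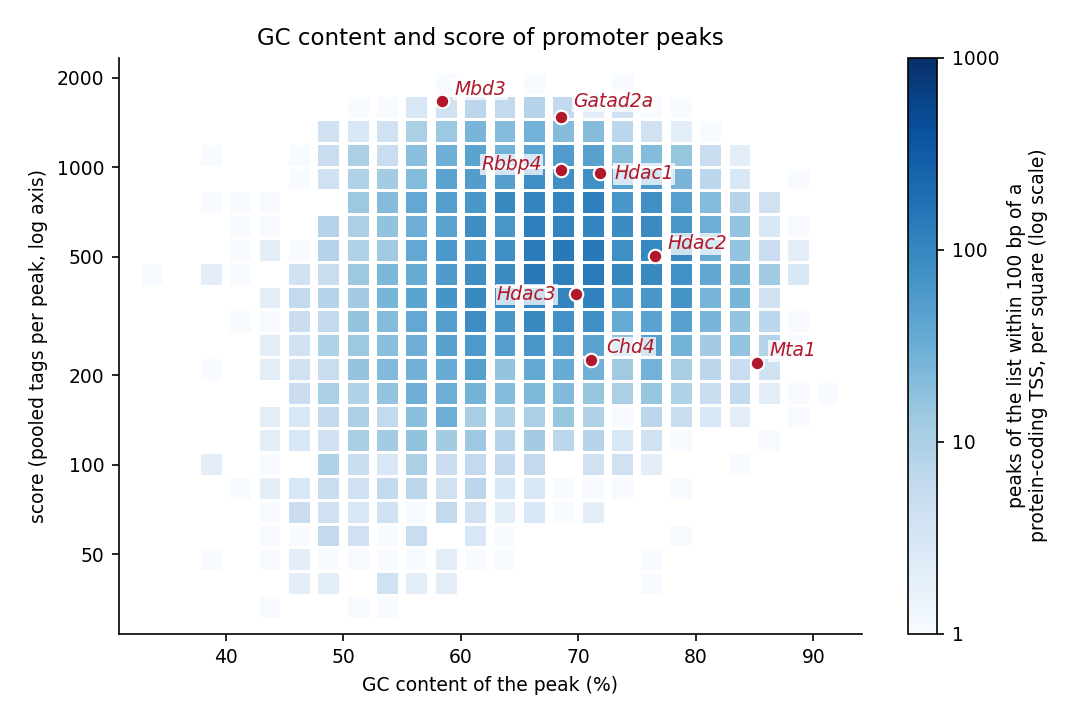
GC content of each peak (%, horizontal) and its score (pooled tags in 149 bp, log axis) for the 8 member peaks at a main TSS (red) and, as blue squares shaded by their number on a log scale, for the 8219 peaks of the Smyd1-KO list within 100 bp of a protein-coding TSS. These 8 peaks run from Mbd3 at the upper left to Mta1 at the lower right, while the list as a whole shows little slope. Peaks at internal starts, such as that of Gatad2a, are counted in the squares but are not among the red points.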

How the data were processed

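ATAC-seq libraries of WT and Smyd1-KO hearts (2 each) were aligned by the authors with BWA-MEM to mm10 and merged by genotype, and peaks were called with HOMER. Each deposited list holds peaks in which one genotype exceeded the other at least 2-fold, each with a tag signal as its score, not normalized in the Smyd1-KO list and apparently scaled in the WT list. Treatment of the Tn5 offset and of duplicates is not given in the sources used here, and the usable depth of each library cannot be read from the lists. The 2-fold limit means that weaker differences are absent and the tags of the other genotype at each peak are not known.

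Peaks were assigned to genes of GENCODE M21 as 1-based intervals with Python 3.11.15, pandas 2.3.3 and NumPy 2.4.6, and sequences were read with samtools 1.23.1. The main TSS was that of the principal protein-coding transcript. A CpG-rich promoter had at least 50% GC and an observed to expected CpG ratio of at least 0.6 in 300 bp. Poisson intervals (95%) treat the score, which steps in fractions of a tag, as a count and are approximate. Placement was tested on simulated data. Every gene of the list is named with all of its peaks, and partner genes by list, of which 1 item is not reported here. The genes, lists and strings were chosen with earlier results of these data known. Alternatives changed the distance, the transcripts, the score minimum, the part of the peak and the assignment to the nearest gene.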

Additional observations from a re-analysis of the deposited data

How the results depend on the processing

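Of 43 alternative settings, 39 left the value close to the one reported. The 21 Smyd1-KO-enriched peaks at these genes became 13 when each peak was given to the gene of its nearest TSS alone, which removed Mta2. The number of genes with a peak was 10 as reported and 9 under that setting, with a distance of 5 kb, with peaks at or above the list median, with protein-coding transcripts alone and with basic transcripts alone. A peak covered a TSS at 5 genes, at 0 when only its central base counted, and at 8 when 100 bp were allowed. The median strongest score moved from 503.5 to 729.2 tags when peaks under the list median were left out, which removed Chd3. No WT-enriched peak was found at these genes under any of the settings run, but these settings could only remove peaks. That outcome was thus fixed in advance, and its settings are counted among the 39. With a 1000-bp promoter window the number of CpG-rich members stayed at 9, but Chd3 entered the class and Hdac3 left it. No paired analysis was possible because the lists were made from pooled libraries, and for the same reason no library could be left out. Depth limits weak peaks most: the lowest Poisson interval among member peaks ran from 134.3 to 184.6 tags.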

Other observations

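The deacetylases outside class I differed in where their peaks lay. Hdac9, a class IIa enzyme that binds MEF2, had 10 Smyd1-KO-enriched peaks over its long gene, from 35.5 to 204 tags. Hdac4, of the same class, had a single promoter peak of 1444 tags, and Hdac5 one of 397 tags within 3 kb of a TSS. Hdac7, the class IIa enzyme of endothelial cells, had no peak at all. Hdac6, the tubulin deacetylase, had 526 tags, Hdac10 had 314.5 and Hdac11 had 99, at a peak nearer to a start of Gm44002. As at the other genes, none of these 7 had a WT-enriched peak.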
